A study of Mus musculus with 10 samples.

Results

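The array probes of 3 mouse intervals that hold clusters of KRAB zinc finger genes were examined, on chromosome 4 (144800000 to 147300000), chromosome 2 (174500000 to 178200000) and chromosome 13 (65500000 to 68200000), in the positions of genome build mm9. A probe was a member when its start lay in an interval, whatever it measured. This gave 207 probes, 55 on chromosome 4, 53 on chromosome 2 and 99 on chromosome 13, of 161460 probes on the autosomes and 170305 in all. The study compared DNA copy number in liver DNA of 5 ICSI-derived mice and 5 naturally born mice on 2-colour Agilent arrays, each with 3 males and 2 females by label. The ICSI-derived mice were ZFLacZ progeny made by injecting sperm cells (ICSI) from testis material that had been frozen for 14 years, with ZFLacZ as the father's line and DBA x C57BL/6 oocytes on the mother's side; ZFLacZ is a transgenic line that was first made on SJL x C57BL/6. The naturally born mice were adult wild-type ZFLacZ progeny for which no cross is given, so any strain difference between the groups cannot be told apart from the way of birth. The DNA of every animal carried Cy5, and the Cy3 channel of every array held the same pool of equal parts of C57BL/6, SJL and DBA DNA. A value is the log2 ratio of animal to pool, minus the median of that array's autosomal probes, so 0 is the typical autosomal level. Because no array had the dyes swapped, a dye effect and the pool's own composition cannot be told apart from a level shared by all animals.

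KRAB zinc finger proteins bind DNA through arrays of zinc fingers and recruit the corepressor TRIM28 (KAP1) through the KRAB domain, and many of them silence transposable elements. Their genes multiply by local duplication, so that neighbours are close copies of each other and copy number differs between mouse strains. The Rsl genes on chromosome 13 (regulator of sex-limitation) are known for repressing male-specific liver genes in females.

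Gene neighbourhoods were read from RefSeq (GRCm38.p6) by gene order alone, since the probe positions are in mm9; no probe was assigned to a gene, no position was carried between the builds, and the KRAB domain itself was not looked for. The run between Tnfrsf8 and Miip on chromosome 4 held 19 protein-coding genes, 16 of them with a Zfp or Rsl name or synonym. On chromosome 2, 9 of the 32 genes between Edn3 and Phactr3 were so named, most of the others having only a provisional Gm symbol. Chromosome 13 held a run of 14 genes between Zfp369 and Uqcrb with 1 such name and a run of 26 between Ptdss1 and BC048507 in which all 26 had one.

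The gene starts of the runs differed in how often their sequence recurs exactly at the start of another gene. Each RefSeq promoter, 250 bases before to 50 after a gene's start, was cut into all windows of 60 bases, the length of most probes. A window was shared if the promoter of another gene, inside the run or anywhere else, held it on either strand. In the chromosome 2 run 72.5% of windows were shared, and 31 of 36 promoters held a shared window. Some genes there count with several overlapping promoters. By gene, 27 of 31 held a shared window. The share was 17.7% in the chromosome 4 run (9 of 17 promoters) and 16.4% in the first chromosome 13 run (7 of 13). It was 0.066% in the run that holds the Rsl genes (2 of 25 promoters), below the 3.51% of all 32851 promoters. Only exact matches over 60 bases counted, so close copies with scattered differences can score 0. A low share therefore does not show that gene starts are unlike. The promoters of Rsl1 and Zfp429 below also have shorter stretches in common outside the capitals. The 5 promoters printed here show this range. Capitals mark the longest stretch in common with the named partner, and each is written 5′ to 3′ on the strand of its gene. Zfp966 and Zfp967 lie on opposite strands of chromosome 2 and have the same 300 bases, so the first line stands for both. Rex2 and Zfp600 of chromosome 4 share 285 bases without a break, and Rsl1 and Zfp429 of chromosome 13 share 61.
Zfp966 (minus strand, as Zfp967): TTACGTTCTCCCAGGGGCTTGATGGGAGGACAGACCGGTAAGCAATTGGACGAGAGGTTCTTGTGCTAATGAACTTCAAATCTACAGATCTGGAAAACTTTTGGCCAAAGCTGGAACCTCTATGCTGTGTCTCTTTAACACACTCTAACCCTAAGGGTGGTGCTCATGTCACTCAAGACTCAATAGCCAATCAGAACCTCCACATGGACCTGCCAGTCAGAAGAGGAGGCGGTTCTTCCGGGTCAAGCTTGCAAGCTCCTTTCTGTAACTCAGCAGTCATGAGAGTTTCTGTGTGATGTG
Rex2 (plus strand): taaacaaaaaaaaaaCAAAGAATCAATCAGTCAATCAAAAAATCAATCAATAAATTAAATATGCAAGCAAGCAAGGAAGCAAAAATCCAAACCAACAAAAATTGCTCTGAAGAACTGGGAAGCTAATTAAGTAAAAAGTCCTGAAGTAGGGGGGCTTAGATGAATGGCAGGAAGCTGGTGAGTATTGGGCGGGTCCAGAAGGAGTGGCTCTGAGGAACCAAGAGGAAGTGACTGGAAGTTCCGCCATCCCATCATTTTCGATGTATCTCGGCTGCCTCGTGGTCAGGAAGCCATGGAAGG
Zfp600 (plus strand): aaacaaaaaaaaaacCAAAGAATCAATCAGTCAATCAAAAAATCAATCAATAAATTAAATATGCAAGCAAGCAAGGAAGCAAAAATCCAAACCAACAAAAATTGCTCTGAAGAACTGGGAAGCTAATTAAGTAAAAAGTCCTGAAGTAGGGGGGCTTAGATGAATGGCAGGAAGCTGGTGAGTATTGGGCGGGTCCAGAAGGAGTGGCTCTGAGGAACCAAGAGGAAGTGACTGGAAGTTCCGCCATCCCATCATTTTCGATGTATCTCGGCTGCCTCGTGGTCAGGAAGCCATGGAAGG
Rsl1 (plus strand): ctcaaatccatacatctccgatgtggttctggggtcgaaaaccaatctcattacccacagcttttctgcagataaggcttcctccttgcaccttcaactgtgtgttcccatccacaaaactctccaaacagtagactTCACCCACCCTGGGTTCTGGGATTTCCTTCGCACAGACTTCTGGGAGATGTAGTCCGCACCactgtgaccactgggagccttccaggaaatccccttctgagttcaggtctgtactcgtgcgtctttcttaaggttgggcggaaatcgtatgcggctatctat
Zfp429 (minus strand): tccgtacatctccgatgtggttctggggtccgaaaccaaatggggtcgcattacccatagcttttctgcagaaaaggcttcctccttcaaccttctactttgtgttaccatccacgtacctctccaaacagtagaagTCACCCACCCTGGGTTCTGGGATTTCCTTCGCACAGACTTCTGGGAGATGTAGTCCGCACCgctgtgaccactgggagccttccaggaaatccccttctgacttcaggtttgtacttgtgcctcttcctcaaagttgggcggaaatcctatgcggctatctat
A window found once among promoters can still recur elsewhere in the genome, which was not searched.

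The array sampled all 3 intervals thinly, each in its own way. Chromosome 4 had 2.2 probes per 100 kb, chromosome 2 had 1.43 and chromosome 13 had 3.67, against 6.71 over the autosomes. Among autosomal tiles of the same length, 1.47% were as sparse as the chromosome 4 interval (14 of 953), 0.936% as the chromosome 2 interval (6 of 641) and 6.46% as the chromosome 13 interval (57 of 883). The median distance between neighbouring probe starts was nonetheless near the autosomal 10.8 kb, with 10.6 kb, 11.2 kb and 9.37 kb on chromosomes 4, 2 and 13. The probes thus came in stretches of usual density with long empty stretches between them. Whether repeated sequence and the missing probes go together was not tested.

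**Figure D1:**
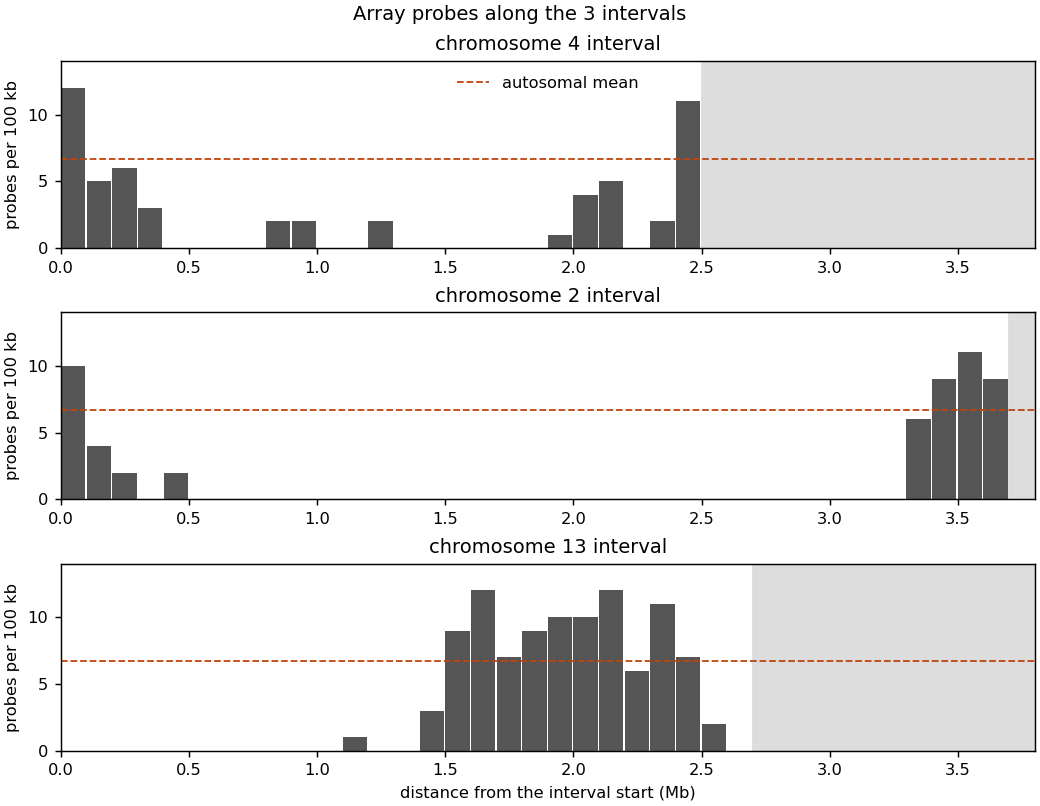
Number of member probes in each 100 kb bin (vertical axis) against the distance from the start of each interval in Mb (horizontal axis), with the autosomal mean of 6.71 as a dashed line and the area past the interval's end in grey. Most probes of chromosome 2 sit at its ends, and those of chromosome 13 in its middle and distal part.

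The emptiest stretch lay on chromosome 2, where no probe started between 174984200 and 177829754. This is 2.85 Mb, or 76.9% of the interval, and 5 of the 161441 distances between neighbouring autosomal probes were at least as long. On chromosome 13 no probe started over the first 1.17 Mb (43.4% of the interval), up to 66671028. A lone probe there was followed by 311 kb without one, so 98 of the 99 probes lay between 66981677 and 68036312. On chromosome 4 the longest empty stretch ran for 770 kb, from 146023601 to 146793809. Others of 469 kb, 280 kb and 201 kb split the rest of this interval into 5 runs of 26, 4, 2, 10 and 13 probes. Of bins of 100 kb, 14 of 26 held no probe on chromosome 4, 30 of 38 on chromosome 2 and 15 of 28 on chromosome 13. The values therefore describe the sampled edges and islands of the intervals, and copy number in the empty stretches is not analysed here. Which of the sampled probes lie among the zinc finger genes was not determined. On chromosome 2 in particular, the genes may lie largely in the stretch with few probes. All 207 probes were well above background and none was saturated on any array.

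The arrays were alike in signal, with 173864 to 174090 of 174305 spots above background. Their noise differed. The robust spread between neighbouring probes was 0.20 in ICSI-derived replicate 1, 0.21 in ICSI-derived replicate 4 and 0.17 in naturally born replicate 2, against 0.14 to 0.15 in the other 7. Naturally born replicate 3 is labelled male, but averaged -0.033 over the X probes and -0.0072 over the Y probes. The other 5 labelled males lay between -0.61 and -0.55 on X and between 0.75 and 0.82 on Y, and the 4 females between 0.26 and 0.28 and between -1.57 and -1.42. This array lies between the sexes, and several results are also given without it. The 10 samples are labelled as biological replicates.

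On average over its probes the chromosome 4 interval lay below the pool, the chromosome 2 interval slightly above it, and the chromosome 13 interval near it. The chromosome 4 mean was -0.115, -0.107, -0.094, -0.121 and -0.117 in ICSI-derived replicates 1 to 5, and -0.093, -0.125, -0.090, -0.068 and -0.166 in naturally born replicates 1 to 5. All 10 animals were below 0, at -0.11 ± 0.026 (SD, n = 10), with an adjusted p of 0.0029 in the exact sign-flip permutation test, two-sided, over the 3 intervals; the raw p of 0.00195 is the smallest 10 animals allow. Only 1 of 947 autosomal tiles of this length with 20 or more probes had a lower mean. The level came from some of the probes: with the median over probes in place of the mean it was 0.0039 (adjusted p = 0.63, exact permutation test). Without the 12 probes of its 2 lowest stretches, a choice made after seeing the values, the remaining 43 averaged 0.025 ± 0.026 (SD, n = 10), which is given with no test, since the probes were left out for their low values.

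The chromosome 2 mean was 0.066, 0.020, 0.019, 0.076 and 0.043 in the ICSI-derived replicates and 0.038, 0.075, 0.027, 0.047 and 0.041 in the naturally born ones. All 10 were above 0, at 0.045 ± 0.021 (SD, n = 10; adjusted p = 0.0029, exact sign-flip permutation test), and 14 of 639 tiles lay higher. The 3 highest animals were those with the noisiest arrays; without them the mean was 0.033 (adjusted p = 0.023, exact permutation test). On chromosome 13 the values were 0.037, 0.039, 0.039, -0.022 and 0.054 in the ICSI-derived and 0.036, 0.028, -0.023, -0.059 and 0.047 in the naturally born mice. ICSI-derived replicate 4 and naturally born replicates 3 and 4 were the 3 animals below 0, and the mean of 0.018 ± 0.038 (SD, n = 10) did not pass the test (p = 0.18, exact sign-flip permutation test). Without naturally born replicate 4 it was 0.026 and passed (adjusted p = 0.035, exact permutation test).

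**Figure D2:**
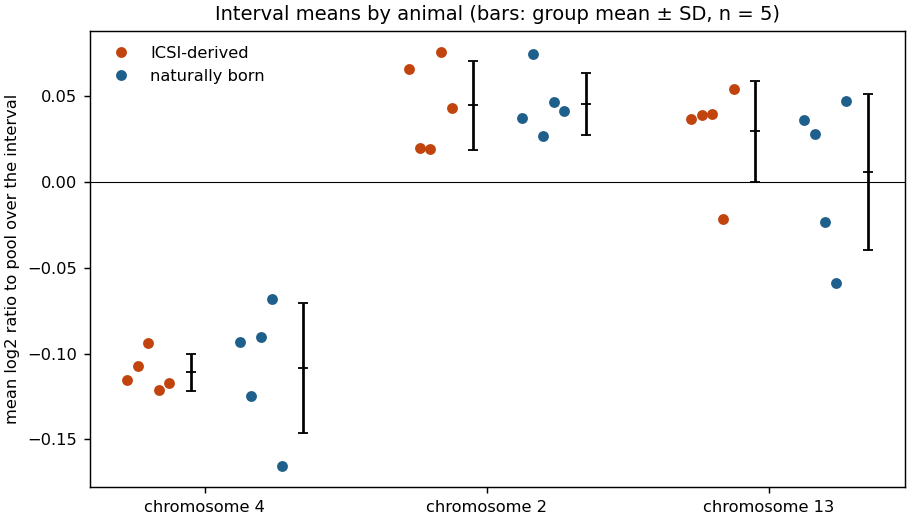
Mean log2 ratio to the pool over the probes of each interval (vertical axis) for every animal, by interval and group; points are animals, and black bars give the group mean ± SD (n = 5). All animals lie below 0 on chromosome 4 and above 0 on chromosome 2, and 3 lie below 0 on chromosome 13.

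Against the probes within 1 Mb on both sides, the chromosome 4 interval was lower by 0.093 to 0.22 in every animal. The mean difference was -0.147 ± 0.050 (SD, n = 10; adjusted p = 0.0029, exact sign-flip permutation test). It was weaker with medians, at -0.019 (adjusted p = 0.059, exact permutation test). The chromosome 2 interval exceeded its flanks in all 10 animals, by 0.026 ± 0.021 (SD, n = 10; adjusted p = 0.0029, exact permutation test). On chromosome 13 the difference was 0.018 ± 0.025 (SD, n = 10) and positive in 8 animals, with an adjusted p of 0.053 in the exact permutation test; it passed without naturally born replicate 3 (0.023, adjusted p = 0.020) or without naturally born replicate 4 (0.022, adjusted p = 0.027), and fell to 0.0076 (adjusted p = 0.38) without the 3 noisiest arrays. Chromosome 4 was lower than chromosome 2 by -0.155 ± 0.039 and lower than chromosome 13 by -0.127 ± 0.057 within each of the 10 animals (SD, n = 10; both adjusted p = 0.0029, exact permutation test). With medians these shrank to -0.038 (adjusted p = 0.0059) and -0.012 (adjusted p = 0.38, exact permutation tests). Chromosomes 2 and 13 differed by 0.027 ± 0.047 (SD, n = 10), with chromosome 2 higher in 6 animals, which did not pass (p = 0.10, exact permutation test).

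The way of birth, the question of the study, made no difference to the interval means that passed the test. ICSI-derived minus naturally born was -0.0025 on chromosome 4 (-0.111 ± 0.011 against -0.108 ± 0.038, SD, n = 5 each; exact permutation p = 0.92). On chromosome 2 it was -0.00055 (0.045 ± 0.026 against 0.045 ± 0.018, SD, n = 5 each; exact permutation p = 0.96). On chromosome 13 it was 0.024 (0.030 ± 0.030 against 0.0058 ± 0.045, SD, n = 5 each; exact permutation p = 0.27, adjusted 0.81), and 0.0076 without naturally born replicate 4. Each difference is smaller than the spread between animals of a group. Within slide 1 (replicates 1 and 2 of both groups) the differences were -0.0023, -0.013 and 0.0059 for chromosomes 4, 2 and 13, and within slide 2 (replicates 3 and 4) they were -0.028, 0.011 and 0.050; slide 3 held 1 animal of each group. Of 20 bins of 100 kb with at least 5 probes none passed at an adjusted p of 0.05 in exact permutation tests. At an unadjusted p of 0.05 there was 1, on chromosome 13 from 67100000 to 67199999 (exact permutation p = 0.016, adjusted 0.32). Its mean was 0.017 in the ICSI-derived and -0.042 in the naturally born mice. The 1 member called between the groups, at 67170291, is 1 of its 12 probes, so the 2 results are not independent. The 10 probes around that member differed between the groups by 0.0050 on average.

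**Figure D3:**
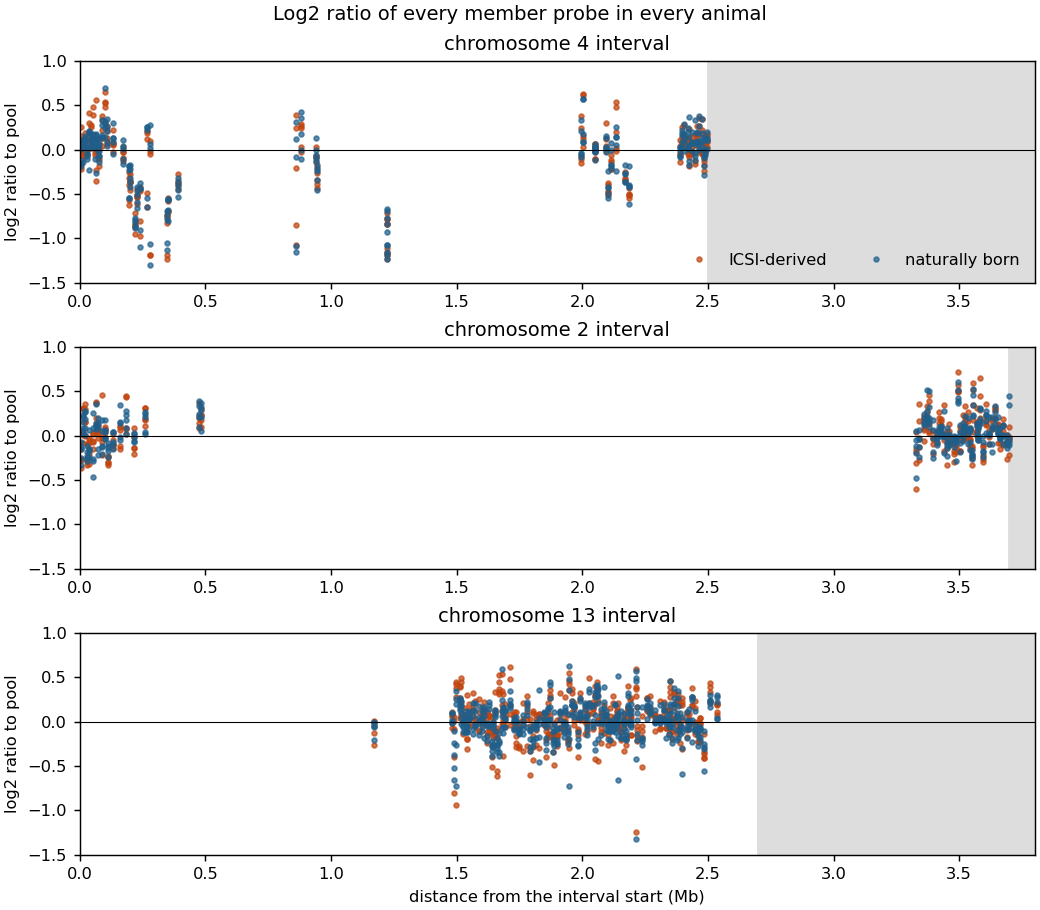
Log2 ratio to the pool (vertical axis) of every member probe in every animal against the distance from the start of its interval in Mb (horizontal axis), ICSI-derived in orange and naturally born in blue, with the area past the interval's end in grey. On chromosome 4 values far below 0 lie in several probes side by side, and on chromosome 13 in a neighbouring pair near 1.5 Mb and in scattered probes beyond it.

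Probe by probe, losses against the pool were frequent on chromosome 4. With limma, a linear model fitted over all autosomal probes, a probe was called when its mean over the animals was at least 0.25 from 0 with an adjusted p under 0.05. Over the autosomes 1.71% of probes were called lower and 3.5% higher. Of the members 18 were lower and 7 higher, which is 8.70% and 3.38%. Chromosome 4 held 14 of the lower calls, 25.5% of its 55 probes, and 2 higher; chromosome 13 held 4 lower and 2 higher of 99; chromosome 2 held 0 lower and 3 higher of 53. The median level was 0.014, 0.036 and 0.025 on chromosomes 4, 2 and 13, against -0.0019 over the autosomes. The mean distance from the pool in either direction was 0.23, 0.13 and 0.10 on these chromosomes and 0.10 over the autosomes. With normexp background correction the split was 19 lower and 16 higher (9.18% and 7.73%), and over the autosomes 2.56% and 5.09%. The number of higher calls also moved with single arrays, to 12 when ICSI-derived replicate 3 was left out and to 11 when either ICSI-derived replicate 2 or naturally born replicate 1 was.

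Of the 14 lower calls of chromosome 4, 8 lay in 1 stretch that was low against the pool in all animals. It began at 144993951, between a probe at 144973585 that averaged -0.035 and one at 144993951 that averaged -0.38. From there to 145192926, which is 199 kb, 8 of 10 probes were called lower. The first run of probes ends there, and the 469 kb beyond hold no probe. Of the next 4 probes, from 145661401 to 145743492, 1 was called lower, at 145743436 (-0.30). The means of these 4 probes ran from -0.34 to 0.16. Further on, the 2 probes at 146023056 and 146023601, an island of 0.605 kb between empty stretches of 280 kb and 770 kb, were low and alike in all animals. The probe at 146023601 lay between -1.23 and -1.07 in the 10 animals (-1.16 ± 0.058, SD, n = 10) and the one at 146023056 between -0.93 and -0.67 (-0.79 ± 0.078, SD, n = 10). A further 3 of 10 probes between 146793809 and 146986857 were called lower, and none of the 13 after 147187509.

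Segmentation of each animal's autosomes joins runs of at least 5 probes with a mean at least 0.25 from 0. It called a loss against the pool on chromosome 4 in 10 of 10 animals. It called no segment in the chromosome 2 or chromosome 13 interval in any animal. Short segments can be missed, since it found 0% of simulated 5-probe losses of 0.4 on the quietest and on the noisiest array. In 7 animals the chromosome 4 segment ran over 16 probes from 144993951 to 146023660. It stopped at 145192926 in ICSI-derived replicate 3, reached 146986857 in naturally born replicate 4, and ran from 145018403 to 145661460 in naturally born replicate 5. The segments are not low throughout. Over the 4 probes from 145661401 to 145743492, ICSI-derived replicates 2 and 5 averaged -0.076 and 0.029. Naturally born replicates 1 and 3 averaged -0.012 and 0.085 there, inside their segments. The segment of naturally born replicate 5 left out the probes at 146023056 and 146023601, where it read -0.83 and -1.07. The differing ends are therefore not evidence of losses of differing length. As most of this length has no probes, the outer ends are not located more closely than the empty stretches allow. Segments covered 7.15% ± 1.30 of the members in the ICSI-derived and 8.02% ± 2.93 in the naturally born mice (SD, n = 5 each, exact permutation p = 0.83), all of it loss. Over the autosomal probes losses covered 0.087% and 0.107%, and losses and gains together 0.16% and 0.18%.

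The 8 probes that all these segments shared, from 145018403 to 145192926, stood at separate levels. Their mean was -0.78, -0.40, -0.41, -0.81 and -0.42 in ICSI-derived replicates 1 to 5, and -0.37, -0.80, -0.40, -0.35 and -0.83 in naturally born replicates 1 to 5. ICSI-derived replicates 1 and 4 and naturally born replicates 2 and 5 lay between -0.83 and -0.78, and the other 6 between -0.42 and -0.35, with no animal between. Both levels occurred in both groups, whose means of -0.56 ± 0.21 and -0.55 ± 0.24 (SD, n = 5 each) did not differ beyond that spread (exact permutation p = 0.75). Of the 4 lowest animals, 3 have the noisiest arrays; naturally born replicate 5, the lowest, has a quiet one, at 0.15. Without those 3 arrays the core averaged -0.46 and still ran from -0.83 to -0.35.

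The separate levels came from some of these probes, next to others that were alike in all animals. The probe at 145079618 read -1.19, 0.10, -0.045, -1.19 and -0.013 in the ICSI-derived replicates and 0.025, -1.29, 0.070, 0.27 and -1.06 in the naturally born ones. Here 4 animals lay below -1 while the other 6 lay near or above the pool. The probe at 145068993 read -0.64, 0.19, 0.21, -0.49 and 0.12, then 0.25, -0.54, 0.26, 0.22 and -0.64 in the same order, and placed the same 4 animals low. The probe at 145018403, by contrast, lay between -0.95 and -0.71 in all 10 animals (-0.83 ± 0.068, SD, n = 10). The probe at 145149527 was below the pool in every animal and still held the split, at -0.80 to -0.68 in those 4 animals and -0.58 to -0.54 in the other 6. So 8 of the 10 probes of the stretch were below 0 in every animal, while those at 145068993 and 145079618 were far below it in 4.

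**Figure D4:**
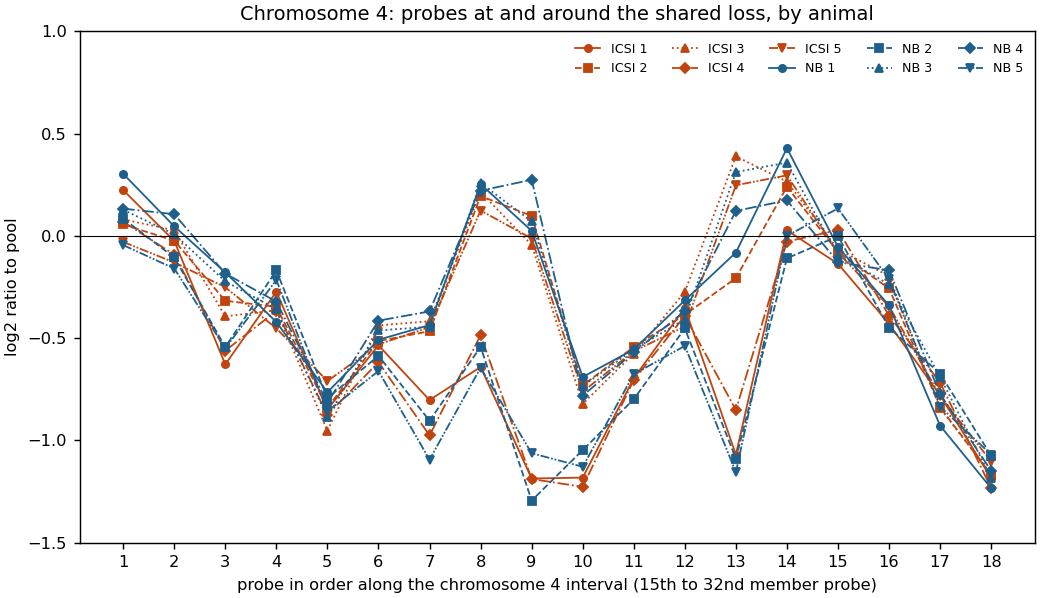
Log2 ratio to the pool (vertical axis) of 18 successive member probes of chromosome 4, in their order along the chromosome with equal spacing (horizontal axis), 1 line per animal; ICSI is ICSI-derived, NB naturally born, and the number is the replicate. Probes 5 and 18 are low in all animals, while at probes 8, 9 and 13 ICSI 1, ICSI 4, NB 2 and NB 5 lie below the other 6.

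The same sorting of the animals extended over empty stretches to other islands of probes. The probe at 145661401 read -1.07, -0.21, 0.39, -0.85 and 0.25 in the ICSI-derived and -0.082, -1.09, 0.31, 0.12 and -1.16 in the naturally born replicates. At 146804312, on the other side of the longest empty stretch, the direction was the opposite, with 0.63, 0.13, 0.15, 0.61 and 0.030, then 0.092, 0.57, 0.18, 0.084 and 0.57. The 4 animals that were low before were high here. For each member whose SD over the 10 animals exceeded 0.212, the 95th percentile of all autosomal probes, the animals were divided at the widest distance between neighbouring values. Chromosome 4 had 7 such probes (12.7%, against 5% of autosomal probes by definition). At 4 of them the lower side held exactly ICSI-derived replicates 1 and 4 and naturally born replicates 2 and 5, and at 1 the upper side held exactly these 4. Neighbouring probes are not replicates of each other, and 3 of these 4 animals have the noisiest arrays; 6 probes of chromosome 4 exceeded the percentile without those arrays. The chromosome 2 interval had 0 such probes of 53.

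The chromosome 13 interval had 11 such probes of 99 (11.1%), and these marked a different set of animals. ICSI-derived replicate 4, which has the noisiest array (0.21), belongs to this set and to that of chromosome 4. The probe at 67713058 read 0.29, 0.59, 0.37, -1.24 and 0.39 in ICSI-derived replicates 1 to 5 and 0.46, 0.57, -0.42, -1.32 and 0.49 in naturally born replicates 1 to 5. ICSI-derived replicate 4 and naturally born replicate 4 were far below the rest, and naturally born replicate 3 lay between. At 66998851 the same replicates read -0.94, -0.72 and -0.26, with the other 7 animals between 0.20 and 0.45. At 67448491 they read -0.30, -0.72 and -0.20, against 0.35 to 0.63. Naturally born replicate 4 was among the 2 lowest animals at 10 of the 11 probes, ICSI-derived replicate 4 at 8, and naturally born replicate 3 came directly after the 2 lowest at 7. At 67179655 the direction was the opposite. There ICSI-derived replicate 4 and naturally born replicate 4 were the 2 highest animals, at 0.54 and 0.59, and the other 8 reached at most 0.34. ICSI-derived replicate 4 and naturally born replicates 3 and 4 are the animals whose interval mean, which includes these 11 probes, was below 0. ICSI-derived replicate 4 and naturally born replicate 4 are both females of slide 2. Naturally born replicate 3 is on that slide too, with its X and Y values between the sexes. At 67713058, 66998851 and 67448491 the other females, replicate 5 of each group, lay with the remaining animals. So did ICSI-derived replicate 3, the fourth animal of slide 2 (0.37, 0.45 and 0.43). The part of sex and slide in this pattern was not tested. The probe next to 66998851, at 66989676, was low in the same 3 animals, at -0.81, -0.66 and -0.52, with the other 7 between -0.40 and 0.049. The animals' means over the 10 neighbouring probes in order, as many on each side, spanned 0.23 around 66989676 and 0.21 around 66998851. They spanned 0.12 around 67448491 and 0.097 around 67713058. Each probe of the pair at 66989676 and 66998851 is itself among the neighbours of the other. Some neighbours of this pair lie before the start of the interval. Without naturally born replicate 3, 10 probes of chromosome 13 exceeded the percentile, and without the 3 noisiest arrays 11 did.

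**Figure D5:**
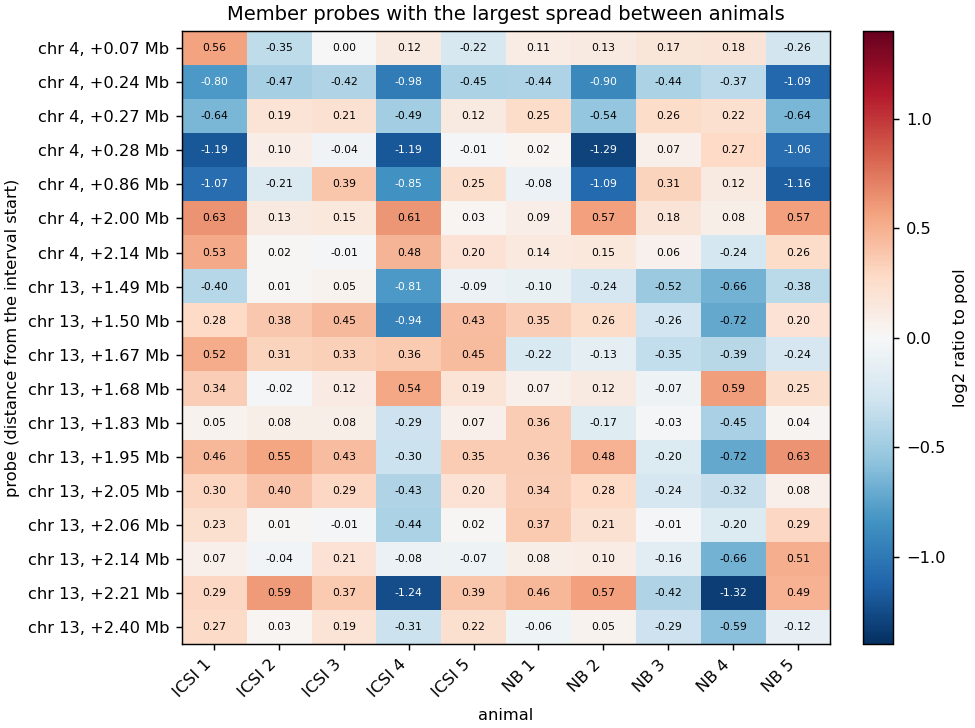
Log2 ratio to the pool in each animal (columns; ICSI is ICSI-derived, NB naturally born) of the 18 member probes whose SD over animals exceeded the autosomal 95th percentile (rows, labelled by distance from the interval start), from blue for low to red for high, with the value in each cell. Columns ICSI 1, ICSI 4, NB 2 and NB 5 stand out on chromosome 4, and ICSI 4 and NB 4 on chromosome 13.

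The named bins show the same places. On chromosome 4 the bin from 145000000 had both the lowest mean and the widest range, -0.48 ± 0.22 (SD, n = 10) and -0.76 to -0.24, and the bin from 147200000 had the highest mean, 0.070 ± 0.049. Chromosome 2 varied little, from -0.0063 ± 0.055 in the bin from 174500000 to 0.063 ± 0.027 in the bin from 178100000 (SD, n = 10), and its widest range was -0.044 to 0.16 in the bin from 177800000. Its 3 probes called higher, at 177995352, 178055532 and 178082984, averaged 0.51, 0.35 and 0.28, and each was above 0 in all 10 animals. On chromosome 13 the bins ran from -0.056 ± 0.034 from 67900000 to 0.10 ± 0.071 from 67500000 (SD, n = 10), with the widest range, -0.17 to 0.084, in the bin from 67200000.

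A single member differed between the groups. With limma and sex as a covariate, 1 of 207 members was called higher in the ICSI-derived mice at an adjusted p under 0.05 over all autosomal probes and 0 were called lower; over the autosomes 0.0155% were called higher and 0.00434% lower. At an unadjusted p under 0.05, 3 of 207 members differed, against 5274 of 161460 autosomal probes. The called probe spans 67170291 to 67170350 on chromosome 13. It read 0.52, 0.31, 0.33, 0.36 and 0.45 in ICSI-derived replicates 1 to 5, and -0.22, -0.13, -0.35, -0.39 and -0.24 in naturally born replicates 1 to 5. All ICSI-derived mice were above the pool and all naturally born mice below it, a difference of 0.66 ± 0.065 (SE; limma adjusted p = 0.0021). Of the 10 neighbouring probes in order, as many on each side, none shared it. Their differences lay between -0.092 and 0.092 with a mean of 0.0050, so the difference rests on 1 probe of 60 bases. It was the 1 member whose groups did not overlap with the ICSI-derived mice higher, and 0 did so with them lower (0.264% and 0.246% of autosomal probes). The call was kept when any 1 animal was left out; within slide 1 or slide 2 alone, with 4 animals each, limma called 0 members.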

How the data were processed

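Liver DNA of 10 mice was hybridised against a common pool. Per the file headers, the authors' deposited processed-signal intensities (Feature Extraction 10.7.3.1) are background-subtracted and dye-normalized; headers of 6 arrays name mm9 and 4 name no build. The deposited value table of log10 ratios equals the scanner's log ratio. Partek 6.5 is named in the submitters' processing notes. Spots of a probe were averaged, log2 of Cy5 over Cy3 was taken and each array centred on its autosomal median. Array noise and the number of arrays limit precision.

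Interval means were tested with exact permutation tests, two-sided, and single probes with limma 3.58.1 in R 4.3.3 over 161460 autosomal probes, with Benjamini-Hochberg adjustment. Segmentation used optimal partitioning (penalty factor 3). On simulated data, limma recovered 19.4% of group differences of 0.3, 88.1% of 0.6 and 100% of 1.0 between the groups. Segmentation found 90.0% of 10-probe losses of 0.4 on the quietest array and 0% on the noisiest. Of 5-probe losses it found 0% of 0.4 on either array, and of 0.6 it found 86.7% on the quietest and 3.33% on the noisiest.

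Named were the 3 intervals, called probes, extreme bins, cores of shared segments and longest gaps; other probes were named after their values were seen. The intervals and tests were chosen with earlier results of these data known. Alternatives covered background correction, loess, centring, medians, flank and bin width, segmentation settings, batches and leaving out arrays.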

Additional observations from a re-analysis of the deposited data

Results flagged for a closer look

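Within the ICSI-derived group, replicate 4 lay apart from the others in the mean of the chromosome 13 interval, at -0.022 against 0.037 to 0.054 in the other 4, a distance larger than Dixon's 95% limit for 5 values. Of 26 groups of values examined this way it was the 1 beyond the limit, and chance alone puts about 1 in 20 there. Among the naturally born mice, replicates 3 and 4 were also below 0 on this interval.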

How the results depend on the processing

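Of 373 repeats of the results under other settings, 332 kept their direction and their side of the threshold or stayed within the set margin. The negative level of chromosome 4 turned to 0.0039 with medians (adjusted p = 0.63) and to 0.025 without the 12 probes of its 2 lowest stretches, a choice made after the data were seen. With medians its difference from the flanks weakened to -0.019 (adjusted p = 0.059) and from chromosome 13 to -0.012 (adjusted p = 0.38). The chromosome 13 difference from the flanks passed with normexp (0.019, adjusted p = 0.043), with normexp and loess (0.019, adjusted p = 0.041) and with 2 Mb flanks (0.0189, adjusted p = 0.023), but was 0.0076 (adjusted p = 0.38) without the 3 noisiest arrays. The group difference, which passed under no setting, changed sign on chromosome 4 with normexp (0.0013, with or without loess), and on chromosome 2 with all-probe centring (0.00075), medians (0.0040), within slide 2 (0.011) and in females (0.016). That of the share in segments turned to 0.68 with a penalty factor of 6, 1.64 with a threshold of 0.4 and 0.97 with loess. Members called against the pool numbered 2 higher and 9 lower at an absolute mean of 0.4 (0.966% and 4.35%, against 0.761% and 0.28% of autosomal probes), 57 and 43 with no limit (27.5% and 20.8%, against 22.3% and 22.1%), 16 higher with normexp and 15 with loess. Within slide 1 and slide 2 limma called 0 members between groups. Chromosome 2 had 2 probes above the spread limit with the SD within groups and 2 without the 3 noisiest arrays, and 1 without naturally born replicate 3. The causes were not tested.

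Leaving out 1 animal at a time, the level was -0.114 to -0.103 on chromosome 4, 0.042 to 0.048 on chromosome 2 and 0.014 to 0.026 on chromosome 13 (adjusted p 0.035 to 0.31). The group difference ran from -0.017 to 0.0075 on chromosome 4, from -0.0083 to 0.0068 on chromosome 2 and from 0.0076 (without naturally born replicate 4) to 0.037 on chromosome 13, and that of the share in segments from -1.79 to 0.27. The difference from the flanks on chromosome 13 ran from 0.014 to 0.023 (adjusted p 0.020 to 0.105). Members called higher against the pool numbered 7 to 12. Without naturally born replicate 3 the group difference on chromosome 4 changed sign, to 0.0021. Members called higher against the pool were then 10 (4.83%, against 3.62% of autosomal probes).

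Same-numbered animals did not deviate together (correlations of 0.047, -0.28, 0.10, -0.0060 and 0.15 for replicates 1 to 5), so the numbers were not taken to pair them. With the replicate number as a block, limma called 1 member higher and 0 lower, and the interval differences were the same, -0.0025, -0.00055 and 0.024 for chromosomes 4, 2 and 13. The exact permutation p was 0.0625 on chromosome 13, the smallest that 5 pairs allow (adjusted 0.19).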
